A study of Mus musculus with 19 samples.

Results

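The 6 lymphomas with the highest Myc transcript level were compared with the 6 that had the lowest, out of 18 ranked and 19 sequenced lymphomas of Em-Myc (Eμ-Myc) mice. The groups were chosen by the deposited Myc value itself, so the Myc values below are a description and every test is on other genes. One lymphoma of the series, HET_early_2, was left out before ranking, and the 6 of middle rank were used only where stated. All mice carried the transgene, a Myc gene under the B cell enhancer of the immunoglobulin heavy chain locus, and reads of the transgene and of endogenous Myc cannot be told apart in these values. Mice were Bptf+/+ (WT) or Bptf+/Δ (HET, 1 deleted Bptf allele, whose missing exons are not given in the sources used here). Bptf encodes the large subunit of the nucleosome remodelling factor NURF. Each library was polyadenylated RNA of a separate whole lymphoma, named by genotype, onset class and a number that follows deposition order and pairs nothing. The Myc-high group held 5 WT and 1 HET tumours, 4 early and 2 late, with onset at 8 to 38 weeks (median 17). The Myc-low group held 3 WT and 3 HET tumours, 1 early and 5 late, with onset at 13 to 76 weeks (median 40). The groups thus differed in composition as well as in Myc: mean onset was 20.2 against 44.2 weeks (two-sided exact permutation p = 0.05195, adjusted p = 0.2078 over 4 such comparisons). Neither the count of HET tumours (1 against 3, two-sided Fisher's exact p = 0.5455, adjusted p = 0.727) nor that of late tumours (2 against 5, p = 0.2424, Fisher's exact, adjusted p = 0.485) passed. With 6 tumours a side these tests cannot show that the groups were alike.

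MYC is a transcription factor that binds DNA as a dimer with MAX, most strongly at the E-box sequence CACGTG. It is best known for raising ribosome production, nucleotide synthesis, translation and cell cycle entry, and for lowering genes that hold cells in arrest. In Em-Myc mice, forced MYC in B cell precursors leads to lymphoma, and ARF and p53 are the main brake on that process.

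Values are normalised read counts, that is, reads divided by 1 factor per library. Myc (ENSMUSG00000022346.15, GRCm38 chromosome 15, 61985391 to 61990374, plus strand) was at 16554.5 in WT_early_3, 14846.9 in WT_late_5 and 14417.2 in WT_early_2. It was at 11158.5 in WT_late_4, 10331.0 in WT_early_4 and 9189.8 in HET_early_3, the last tumour inside the high group. The tumour just outside was WT_early_6 at 8555.7. In the low group it was at 6223.1 in HET_late_3, which lay just inside, while HET_early_1 at 6487.7 lay just outside. The other low values were 6099.4 in WT_early_5, 6006.1 in WT_late_1, 3950.7 in HET_late_2, 3789.6 in HET_late_4 and 2270.9 in WT_late_2. The group means, 12750 and 4723, stood 2.70-fold apart. HET_early_2, with 1232.2, was led by the cartilage collagen Col2a1.

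**Figure D1:**
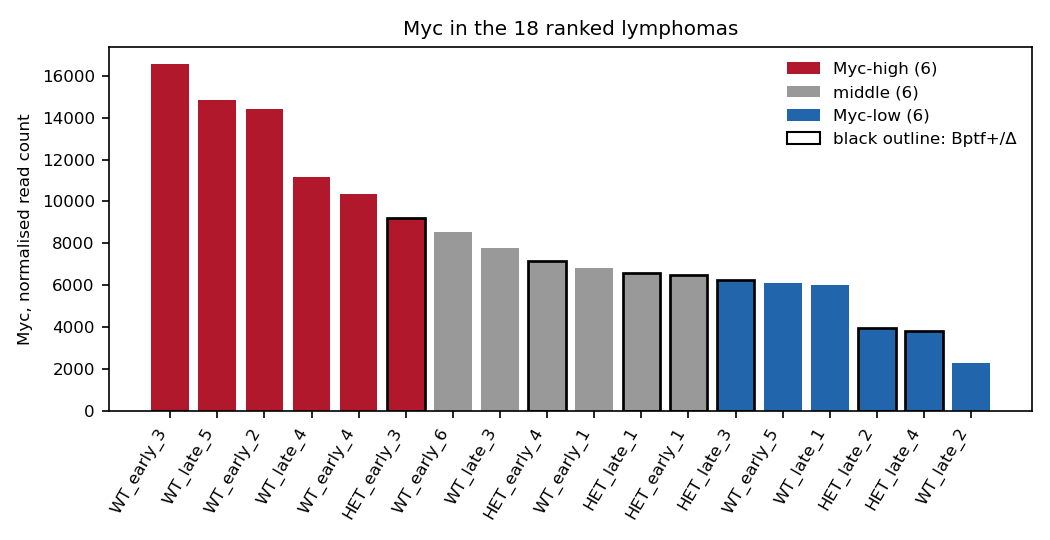
Normalised read count of Myc (y axis) in the 18 ranked lymphomas (x axis), 1 bar per tumour, with red bars for the 6 Myc-high, grey for the middle and blue for the 6 Myc-low tumours and black outlines for Bptf+/Δ tumours. The steps at the group edges are small, from 9189.8 to 8555.7 and from 6487.7 to 6223.1, and 1 of 6 red and 3 of 6 blue bars are outlined.

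Recovered depth ran from 8926911 to 12497732 reads in the Myc-high and from 8995949 to 12350345 in the Myc-low libraries. By its markers the low group was mixed, and in bulk RNA fewer cells of a type and less RNA per cell cannot be told apart. Cd79a, a chain of the B cell receptor complex, was at 4364.1 to 11924 in the Myc-high tumours but at 103.3 in WT_late_1, 1352.0 in HET_late_4 and 2256.6 in WT_late_2. WT_late_1 nevertheless had the IgM heavy chain Ighm at 16809.4 and its partner chain Cd79b at 2736.6. HET_late_4 had 689409 of the kappa constant region Igkc and 752208 of the IgA heavy chain Igha, against highest Myc-high values of 10261 and 2132.6. WT_late_2 had Igkc at 40303 and Igha at 40898. B cell genes did not all go the way of Cd79a. Ms4a1 was at 12044.3 in WT_late_2 and 6090.1 in HET_late_4, above the Myc-high maximum of 3327.4. It was at 3.1 in HET_late_3 and 9.8 in WT_early_5, below the Myc-high minimum of 116.0. Cd79b in WT_late_2 (5841.3) lay within the Myc-high range of 4337.6 to 6615.8. HET_late_2 had low Pax5 (482.5) but Cd79b at 7028.5, and the macrophage gene Fcgr4 at 3347.2. WT_early_5, labelled as a lymphoma like the rest, carried the cartilage gene Acan at 1864.9 and was the only Myc-low tumour with high Rag1 (3130.7). For these reasons the main values are also given without WT_late_1 and HET_late_4, an exclusion chosen after the values were seen. Xist was high in 3 of 6 Myc-high and 2 of 6 Myc-low libraries.

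**Figure D2:**
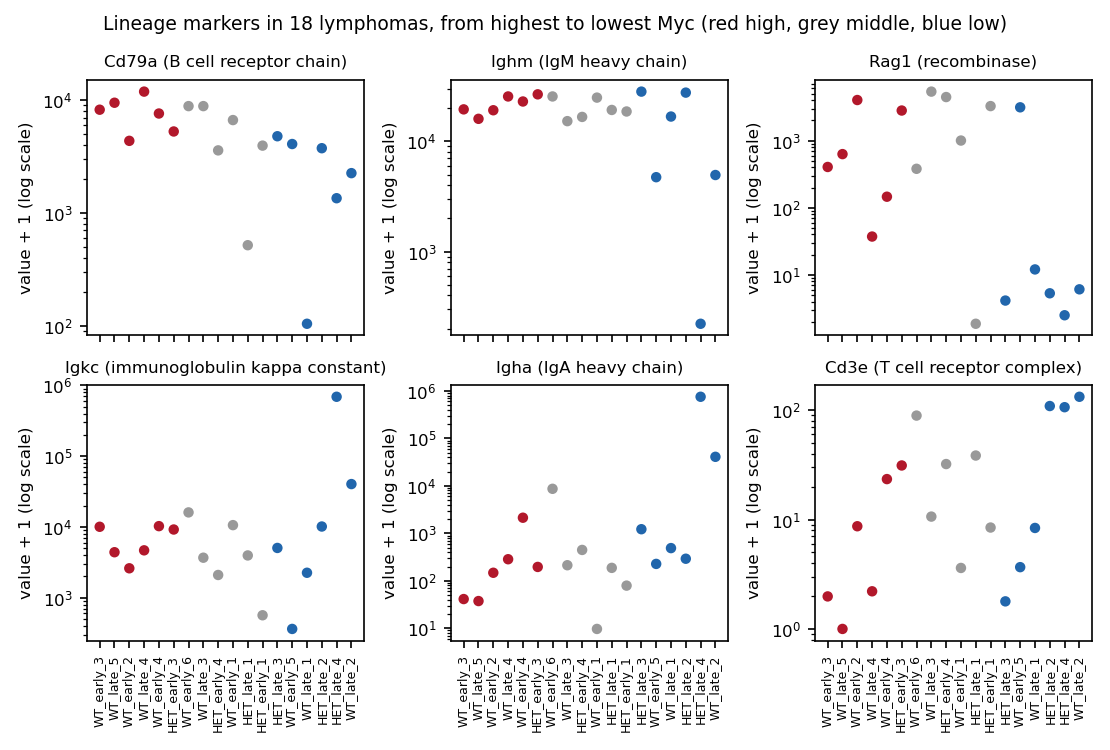
Normalised read count plus 1 (log scale, y axis) of 6 lineage genes in the 18 ranked lymphomas (x axis, from highest to lowest Myc), 1 point per tumour, red for Myc-high, grey for middle and blue for Myc-low. Cd79a lies between 4364.1 and 11924 in the red points but drops to 103.3 among the blue ones, and Igkc reaches 689409 in HET_late_4.

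Few genes separated the groups after correction. Of 18537 genes tested with limma on log2(value + 1), 17 rose in Myc-high tumours (0.0917%) and 18 fell (0.0971%) at a Benjamini-Hochberg adjusted p under 0.05. Their adjusted p ran from 0.0199 to 0.05, all close to the threshold. At an unadjusted p under 0.05 there were 1654 higher (8.92%) and 1821 lower genes (9.82%), and the ranges of the groups did not overlap for 175 higher (0.944%) and 135 lower genes (0.728%). The median difference over all genes tested was -0.06 on the log2 scale, and 46.4% of genes had positive values. Treating log2 Myc as a continuous term over the 18 ranked tumours, scaled to the gap between the groups, tested 19554 genes, of which 1138 rose with Myc (5.82%) and 1002 fell (5.12%). These fits share 12 tumours and are not independent. Of the 35 genes called between the groups, 28 were also called over the 18 tumours. None remained called in limma with genotype and onset class as covariates (1855 genes at an unadjusted p under 0.05) or without WT_late_1 and HET_late_4 (2511 genes). None was called either with a score of non-tumour cells, defined below, as a covariate. There 921 of 18537 genes had an unadjusted p under 0.05, about the share that chance alone would give. In edgeR 5 higher and 17 lower genes were called, and in DESeq2 488 and 1122. Leaving out 1 tumour in turn gave 0 to 223 higher and 0 to 224 lower genes, most without WT_early_5. All 35 kept their direction with genotype and onset as covariates, and so did the 34 that could be tested within the WT tumours alone.

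The 17 genes that rose belonged to several functions. Tcof1, which encodes treacle, a nucleolar factor of ribosomal RNA transcription, was at 3222.3, 5001.5, 3596.6, 2989.3, 3691.8 and 4193.6 in the Myc-high tumours in order of rank. In the Myc-low tumours it was at 1627.6, 2514.7, 2080.1, 1683.7, 1686.3 and 2377.9. Every Myc-high tumour lay above every Myc-low tumour, and the difference was 0.92 ± 0.17 (SE, log2 scale; limma adjusted p = 0.048). Sdad1, the mammalian counterpart of a yeast factor of large ribosomal subunit maturation, ran from 1738 to 2622 (median 2183) against 723.0 to 1341 (median 1122), again with no overlap (1.04 ± 0.17, adjusted p = 0.0473). Taf4b, a subunit of the general transcription factor TFIID best known from germ cells, rose by 1.17 ± 0.20, from a median of 265.2 to 564.0. Myo1c, an unconventional myosin, rose by 1.02 ± 0.18, from 1378 to 2976.

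The larger increases were in genes with little textbook link to MYC. Foxf2, a forkhead transcription factor of mesenchyme, was at 440.0 to 1632 (median 945.6) in Myc-high tumours and at 0.0 to 4.5 in 5 Myc-low tumours, but HET_late_3 had 527.8, so the groups overlapped (7.15 ± 1.15, adjusted p = 0.0442). Reln, the secreted glycoprotein reelin, spread from 292.3 to 10085 with a median of 3384, against 11.5 to 373.4 with a median of 51.0 (5.18 ± 0.92). The adhesion protein gene Lrrn4 (3.35), the RNA editing deaminase gene Adarb1 (2.38), the sortilin family receptor gene Sorcs2 (2.29), the Ras GTPase activating protein gene Dab2ip (1.72) and Zfp318, a zinc finger gene needed for IgD expression in mature B cells (2.15), also rose. Adarb1 and Zfp318 had no overlap between groups. Dab2ip was highest in neither group: its median in the middle tumours, 1429, lay above 784.7 in Myc-high and 208.6 in Myc-low tumours. The middle median was also above the Myc-high one for Zfp318 (553.4 against 508.8) and for the clone-named AC111067.3 (25.4 against 20.8). Hsd17b13, a lipid droplet enzyme gene outside the naming rule, was weak (21.6 to 78.5 against 0.0 to 5.5) but was one of the 2 genes, with Cebpa, that passed most often, in 8 of the 12 fits that left out 1 tumour. The clone-named RP23-101D11.3 rose by 4.78, and 4 more clone-named or immunoglobulin variable genes among the 17 (RP24-172H24.1, RP23-322J11.2, AC111067.3 and Igkv4-50) had medians under 30 reads in both groups. As the strand setting is not given in the sources used here, reads of clone-named transcripts cannot be told from those of overlapping genes.

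The 18 genes that fell were mostly low in Myc-high tumours and included regulators of growth arrest, signalling and interferon response. Cebpa, a transcription factor that drives differentiation and blocks the cell cycle in myeloid and other cells, was at 71.0 to 142.0 (median 108.7) in Myc-high and at 265.0 to 479.8 (median 423.3) in Myc-low tumours. The groups did not overlap (-1.88 ± 0.24, limma adjusted p = 0.0199). Irf1, a transcription factor of the interferon response, ran from 200.6 to 356.6 against 513.7 to 962.1 (-1.33 ± 0.21, adjusted p = 0.0442). Laptm5, a lysosomal protein that lowers surface antigen receptors, ran from 909.0 to 2106 against 2994 to 17508 (-2.11 ± 0.38), with its highest value in WT_late_2.

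Epcam, an epithelial adhesion molecule also made by some lymphoid cells, was at 0.9 to 5.7 in Myc-high tumours and at 27.7 to 93.5 in 5 Myc-low tumours, and at 770.9 in HET_late_4 (-4.56 ± 0.72). The BMP receptor gene Bmpr1a (-2.94), the phospholipase gene Pla2g16 (-2.93), Eepd1 (-2.93), the regulator of G protein signalling Rgs10 (-2.60), the actin regulator gene Abi2 (-2.55) and the fatty acid desaturase family gene Fads3 (-2.49) fell as well. So did Mettl7a1 (-2.22), the stress protein gene Nupr1 (-1.99) and Abhd5, a coactivator of triglyceride breakdown (-1.85). Of these 9 genes, Pla2g16 alone overlapped between groups, by WT_late_1 at 120.8 against a Myc-high maximum of 122.5. The rest of the 18, outside the naming rule, were Abtb2 (-1.76), the tetraspanin gene Cd9 (-1.65), the phosphatase gene Acp5 (-1.37), transglutaminase 2 (Tgm2, -0.99) and AC118022.3, which was listed at 0 in every Myc-high tumour and at no more than 3.0 in any Myc-low one. The left-out HET_early_2, with the lowest Myc of the series, lay above the Myc-high maximum for 17 of the 18 genes that fell and below the Myc-high minimum for 11 of the 17 that rose. That library nearly lacked B cell transcripts (Cd79a 38.5, Pax5 30.6) and was rich in cartilage and stromal ones (Col2a1 566685), so low Myc and a different makeup cannot be told apart there. The middle tumours had a median between those of the groups for 30 of the 35.

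**Figure D3:**
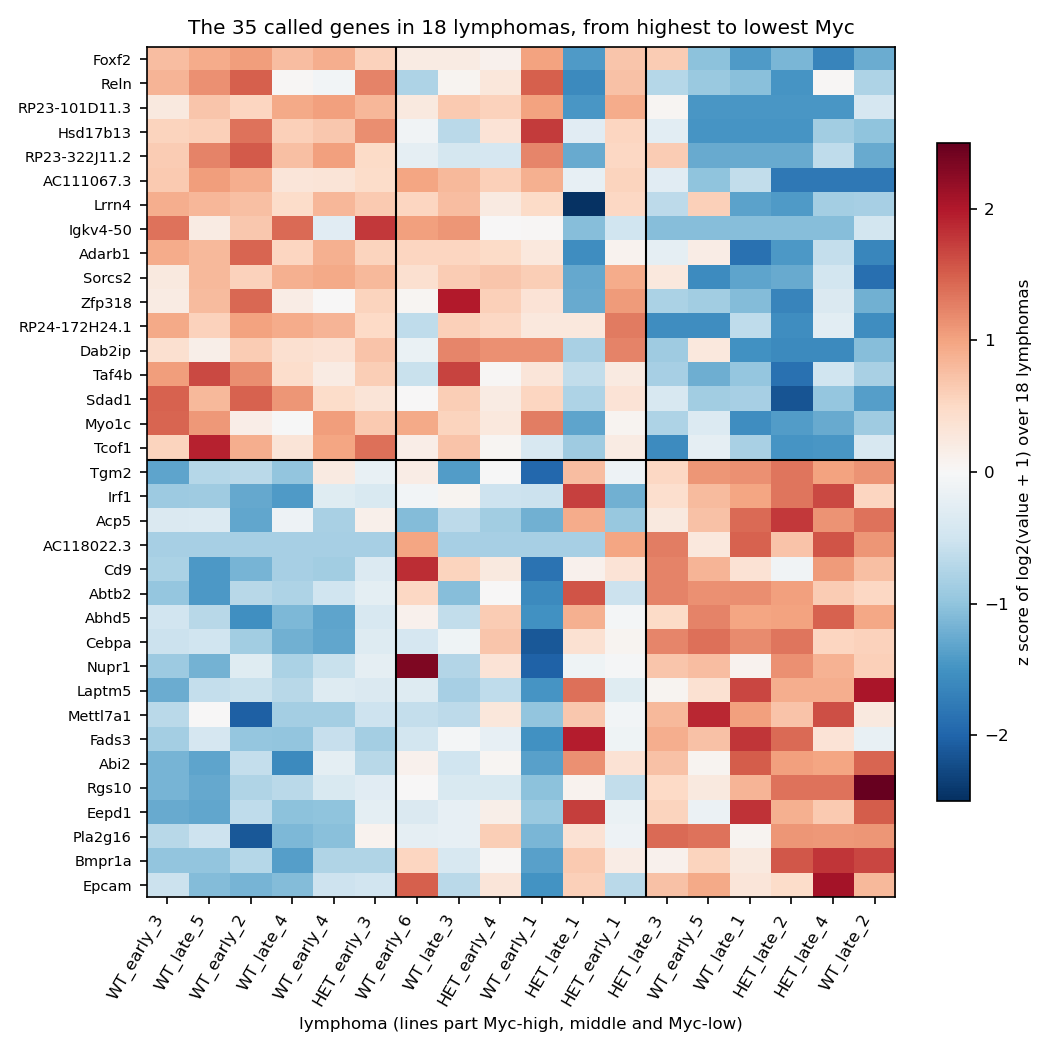
Heat map of the 35 called genes (rows, ordered by log2 difference) in the 18 ranked lymphomas (columns, from highest to lowest Myc), coloured by the z score of log2(value + 1) over the 18 tumours, with vertical lines between Myc-high, middle and Myc-low and a horizontal line between the 17 genes that rose and the 18 that fell. The groups do not overlap for 11 of the 17 and 17 of the 18 genes, and HET_late_3 stands with the Myc-high tumours for Foxf2.

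Ribosome biogenesis genes, a list of 44 nucleolar factors and RNA polymerase I subunits, had positive differences in 42 of 44 cases (median 0.43, against -0.06 over all genes tested). In limma 1 was called (Tcof1), against 0.0917% of all genes called higher. At an unadjusted p under 0.05 there were 28, against 8.92%, and 7 had no overlap between groups, against 0.944%. Over the 18 tumours 23 of the 44 rose with Myc at an adjusted p under 0.05, against 5.82% of all genes, and none fell, against 5.12%. Mybbp1a, a nucleolar protein that binds the transcription machinery of ribosomal RNA genes, was at 9089.0, 9703.0, 9170.4, 8676.7, 8071.4 and 6770.9 in the Myc-high and at 4920.5, 5909.8, 6265.2, 4606.0, 4584.5 and 4607.0 in the Myc-low tumours. No Myc-low tumour reached the lowest Myc-high one (0.74 ± 0.15, limma adjusted p = 0.0693, and 0.000782 over the 18 tumours). Polr1b and Polr1a, the 2 largest subunits of RNA polymerase I, had medians of 1740 against 1034 (0.87 ± 0.19, adjusted p = 0.0873) and 2008 against 1076 (0.88 ± 0.20, adjusted p = 0.0893), each without overlap. The median over the list was 0.50 with genotype and onset as covariates, 0.33 with a score of non-tumour cells as a covariate (the mean z score of T cell, macrophage, stromal and endothelial markers) and 0.41 without WT_late_1 and HET_late_4. On leaving out 1 tumour it ran from 0.39 to 0.51. On continuous Myc it was 0.46 within WT but 0.11 within Bptf+/Δ tumours. Over the 18 tumours 14 of the 44 rose with genotype and onset as covariates, against 183 of all 19554 genes. With the non-tumour score 7 rose, against 50 of all 19554 genes. The tumour means of the list, on the log2 scale, ran from 10.90 to 11.35 in the high, 10.70 to 10.89 in the middle and 10.45 to 11.01 in the low group, where HET_late_2 was highest.

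Nucleotide and polyamine synthesis genes had positive differences in 26 of 30 cases (median 0.39), and none was called between the groups. At an unadjusted p under 0.05 there were 17, against 8.92% of all genes, and 4 had no overlap, against 0.944%. Over the 18 tumours 11 of the 30 rose with Myc, against 5.82% of all genes. With genotype and onset as covariates 4 rose, against 183 of all 19554 genes, and with the non-tumour score 1, against 50. Cad, the enzyme of the first steps of pyrimidine synthesis, was at 3370.6, 4087.1, 6104.8, 4345.0, 4274.9 and 3813.2 in the Myc-high tumours. In the Myc-low tumours it was at 2666.7, 2898.4, 2616.7, 1814.8, 1714.9 and 1315.8, all below the lowest Myc-high value (1.03 ± 0.21, limma adjusted p = 0.0777, and 0.000478 over the 18 tumours). Ppat, which commits to purine synthesis (0.77 ± 0.16), and the folate cycle enzymes Shmt1 (0.88 ± 0.18) and Mthfd1 (0.81 ± 0.18) also had no overlap, with adjusted p of 0.0842, 0.076 and 0.0893. The list median was 0.47 with genotype and onset, 0.24 with the non-tumour score and 0.37 without WT_late_1 and HET_late_4.

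**Figure D4:**
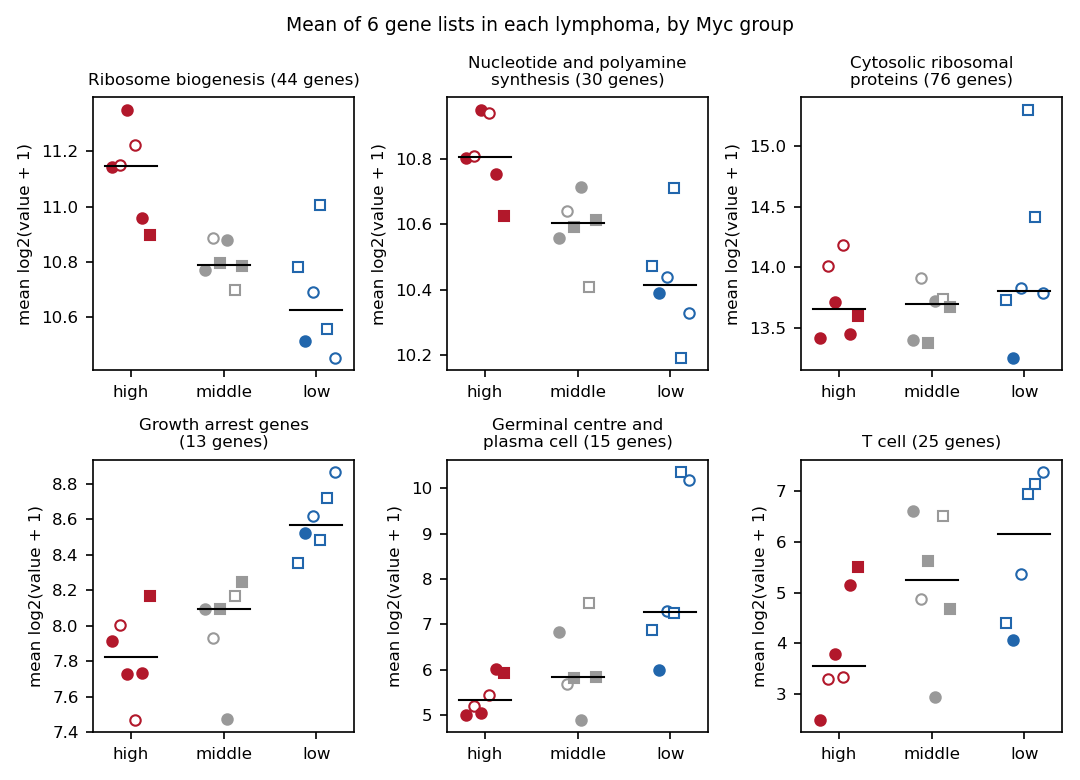
Mean log2(value + 1) over the genes of 6 lists (y axis) in each tumour of the Myc-high, middle and Myc-low groups (x axis), with circles for WT, squares for Bptf+/Δ, filled symbols for early and open symbols for late onset, and lines at group medians. The ribosome biogenesis median steps down from 11.15 to 10.79 and 10.62, while ribosomal proteins overlap widely and reach 15.30 in HET_late_2.

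To show the MYC motif that members of these 2 lists share, the RefSeq promoter windows (GRCm38.p6, 250 bases before to 50 after the first listed start of each gene) were searched for CACGTG, which reads the same on both strands. It was present in 8 of 36 ribosome biogenesis promoters with a match in the table (22.2%) and in 6 of 27 of nucleotide and polyamine synthesis (22.2%). The share was 7.24% of all 27025 promoters, 9.63% of those of genes tested, 14.7% of those that rose with Myc over the 18 tumours (119 of 809, among genes tested in both fits) and 7.35% of those that fell (51 of 694). The motif was not confined to genes with positive differences: 2 of 14 promoters of genes that fell between the groups held it (14.3%), as did 2 of 12 of the germinal centre and plasma cell list (16.7%). Among genes that rose between the groups it was in 2 of 9 (22.2%). It was in 8.93% of cytosolic ribosomal protein, 4.76% of mitosis and none of 27 interferon response promoters. A match describes these letters only and shows neither binding nor regulation. The 30 bases around the motif of all 14 members that held it, and of Sdad1, chosen because it was called, are printed 5′ to 3′ on the gene's strand with the E-box in capitals.
Mybbp1a: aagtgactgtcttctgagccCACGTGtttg
Utp20: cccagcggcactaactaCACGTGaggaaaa
Wdr43: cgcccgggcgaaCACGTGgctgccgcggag
Nop2: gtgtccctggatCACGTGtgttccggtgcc
Imp4: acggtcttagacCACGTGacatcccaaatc
Ltv1: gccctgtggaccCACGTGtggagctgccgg
Pes1: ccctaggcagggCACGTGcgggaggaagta
Nle1: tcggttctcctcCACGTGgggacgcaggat
Atic: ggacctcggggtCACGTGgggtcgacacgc
Sms: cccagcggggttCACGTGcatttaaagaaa
Paics: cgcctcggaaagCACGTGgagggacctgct
Nme1: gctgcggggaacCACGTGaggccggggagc
Impdh2: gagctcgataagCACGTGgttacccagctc
Tyms: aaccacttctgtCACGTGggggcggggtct
Sdad1: agcggcgtgtccCACGTGccgtttccggtt

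These windows lie at chr11:72441347-72441376 (+) for Mybbp1a, chr10:88826765-88826794 (-) for Utp20, chr17:71616220-71616249 (+) for Wdr43, chr6:125131811-125131840 (+) for Nop2 and chr1:34439696-34439725 (+) for Imp4. Those of Ltv1, Pes1 and Nle1 lie at chr10:13193092-13193121 (-), chr11:3963965-3963994 (+) and chr11:82908355-82908384 (-), and that of Sdad1 at chr5:92309986-92310015 (-). Those of the nucleotide and polyamine genes lie at chr1:71557137-71557166 (+) for Atic, chrX:157492466-157492495 (-) for Sms, chr5:76951087-76951116 (+) for Paics, chr11:93968273-93968302 (-) for Nme1, chr9:108560314-108560343 (+) for Impdh2 and chr5:30073669-30073698 (-) for Tyms. Of the 14 motifs, 6 begin after the start site and so inside the transcript, and the offsets run from 203 bases before it (Paics, -203) to base 41 of the transcript (Mybbp1a). The 5 of the 14 that rose with Myc over the 18 tumours were all ribosome biogenesis genes: Mybbp1a, Utp20 (1.01 between the groups), Wdr43 (0.70), Nop2 (0.45) and Imp4 (0.36). The remaining 9 did not pass there, and Nme1 (-0.31) and Tyms (-0.12) had negative differences. Nop2, a ribosomal RNA methyltransferase, holds its E-box upstream, 60 bases before the start, and the 250 bases before the start (chr6:125131633-125131882, +) are shown for context.
Nop2: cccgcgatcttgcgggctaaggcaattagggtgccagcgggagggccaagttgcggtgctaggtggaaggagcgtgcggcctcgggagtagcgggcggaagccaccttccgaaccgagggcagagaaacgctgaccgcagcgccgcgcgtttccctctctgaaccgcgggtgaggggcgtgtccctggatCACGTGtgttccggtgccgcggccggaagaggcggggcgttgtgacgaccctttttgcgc

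Other parts of the growth programme had smaller differences. Translation factors were positive in 18 of 26 cases (median 0.21), 7 at an unadjusted p under 0.05, against 8.92% of all genes. The scaffold Eif4g1 (0.63, 8035 to 12145 against 4314 to 8032) had no overlap, whereas the cap-binding Eif4e (0.56) did overlap. Among cytosolic transfer RNA synthetases 15 of 20 were positive (median 0.14) and Eprs had no overlap (0.56). Mitochondrial import factors and chaperonins were positive in 19 of 25 cases (median 0.20), led by the mitochondrial chaperone Hspa9 (0.61, no overlap) and Hspd1 (0.53). Splicing and methylosome genes were positive in 17 of 19 (median 0.19), with Sf3b3 at 0.65 (no overlap) and Ptbp1 at 0.61. In all 4 lists no member passed between the groups in limma. Over the 18 tumours 6 translation factors, 2 synthetases, 4 import factors and chaperonins and 5 splicing genes rose with Myc, against 5.82% of all genes. With genotype and onset as covariates these counts were 0, 2, 2 and 2, against 183 of all 19554 genes. With the non-tumour score they were 0 in each list, against 50 of all 19554 genes. Within the Bptf+/Δ tumours alone the 4 list medians on continuous Myc were negative, at -0.25, -0.03, -0.47 and -0.22, while within WT tumours they were 0.25, 0.17, 0.27 and 0.25. The difference between genotypes was not tested for lists.

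Structural ribosomal proteins had negative differences that no test supported. Of 76 cytosolic ribosomal protein genes 75 had negative differences (median -0.31), but none had an unadjusted p under 0.05, and the smallest adjusted p was 0.307 (Rpl39, -0.48 ± 0.25; Rpl13a, -0.59 ± 0.32). The direction was not stable: the median was 0.16 with genotype and onset as covariates, 0.12 within WT tumours and -0.06 after quantile normalisation. On leaving out 1 tumour it ran from -0.47 without WT_early_5 to -0.07 without HET_late_2, which had the highest mean of the list (15.30 on the log2 scale, against at most 14.42 in any other tumour). Oxidative phosphorylation genes were negative in 64 of 73 cases (median -0.29, and 0.02 with genotype and onset). Of the 73, 6 were lower at an unadjusted p under 0.05, a share no larger than the 9.82% over all genes. Ndufb9 (-0.60) and Cox7c (-0.66) were among them. Mitochondrial ribosomal proteins (median -0.08) and the constitutive proteasome (-0.08) lay near the median of all genes tested. Glycolysis and transport genes were divided: Slc16a1, a lactate transporter, was at 0.84 ± 0.32 and Hk1, a hexokinase, at -0.90 ± 0.26, neither passing (median -0.20). Amino acid supply genes were divided too (median 0.04), with the glutamine transporter Slc1a5 at 0.57.

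DNA replication genes were positive in 29 of 37 cases (median 0.31, and 0.09 without WT_late_1 and HET_late_4). Of the 37, 9 were higher at an unadjusted p under 0.05, against 8.92% of all genes. Pole, the catalytic subunit of the leading strand polymerase, had medians of 1592 against 816.0 (0.99 ± 0.25, limma adjusted p = 0.108). Orc1 of the origin recognition complex was at 0.72 and the chromatin assembly factor Chaf1a at 0.69. Mitosis genes were positive in 20 of 26 cases with a median of 0.17, which became -0.03 without WT_late_1 and HET_late_4, and Ccna2 (0.51) and Kif20a (0.72) led them. None of either list was called between the groups. Over the 18 tumours 4 of 37 (10.8%) and 2 of 26 (7.69%) rose with Myc, against 5.82% of all genes. In limma with genotype and onset as covariates 0 of both lists rose, against 183 of all 19554 genes. With the non-tumour score 0 of both lists rose, against 50 of all 19554 genes.

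Arrest and death genes lay on the negative side. Of 13 growth arrest genes that textbooks describe as repressed by MYC, 11 were negative (median -0.78). At an unadjusted p under 0.05 there were 6, against 9.82% of all genes. Cebpa was called between the groups, against 0.0971% of all genes called lower. Over the 18 tumours 3 of the 13 fell with Myc, against 5.12% of all genes, and Cebpa did not pass (limma adjusted p = 0.0539). With genotype and onset as covariates 1 of the 13 fell, against 128 of all 19554 genes. With the non-tumour score 0 fell, against 13 of all 19554 genes. The tumour means of this list ran from 7.47 to 8.17 in the Myc-high and from 8.35 to 8.87 in the Myc-low group, without overlap. Cdkn1a, the CDK inhibitor p21, ran from 93.0 to 141.2 against 125.1 to 900.0 (-1.64 ± 0.39, limma adjusted p = 0.093), Klf6 was at -0.84 and Ndrg1 at -1.17. Of 23 ARF and p53 target genes 21 were negative (median -0.49), 8 at an unadjusted p under 0.05, against 9.82% of all genes. In the continuous fit 7 fell with Myc over the 18 tumours, against 5.12% of all genes. With genotype and onset as covariates 2 of these 23 fell, against 128 of all 19554 genes. With the non-tumour score 1 fell, against 13 of all 19554 genes. Phlda3, a p53-induced inhibitor of AKT, had no overlap, at 24.2 to 48.1 against 63.6 to 298.1 (-1.77 ± 0.39, adjusted p = 0.0893), and the death receptor gene Fas (-2.25) and Sesn2 (-1.37) were also negative. Cdkn1a is a member of this list as well as of the growth arrest list, so the 2 lists are not fully separate. Sesn2 is also a member of the amino acid supply list. The BCL2 family was negative in 14 of 17 cases (median -0.67), with the pro-death Bad at -0.98 and the pro-survival Bcl2l1 at -0.67 and Bcl2l2 at -1.24, so both arms had negative values and no member was called between the groups. Over the 18 tumours 4 members fell with Myc, against 5.12% of all genes. With genotype and onset or with the non-tumour score as covariates 0 fell, against 128 and 13 of all 19554 genes. The medians of the 3 lists were -0.73, -0.51 and -0.84 without WT_late_1 and HET_late_4.

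The partners of MYC itself showed no common direction. Of 16 members of the extended MAX network 8 were positive and 8 negative (median 0.06) and none was called. Max, the obligate partner, ran from 1268 to 1915 against 1011 to 1763 (0.17 ± 0.18, adjusted p = 0.607). Mlxip, a MYC-like sensor of glucose metabolites, was at 1.06 ± 0.29, the MYC antagonists Mnt and Mga at 0.59 ± 0.20 and 0.79 ± 0.31, and the antagonist Mxd3 at -1.20 ± 0.42, each with an adjusted p of at least 0.12. Over the 18 tumours 4 members rose, against 5.82% of all genes, and 1 fell, against 5.12%. In limma with genotype and onset as covariates none rose or fell, against 183 and 128 of all 19554 genes. With the non-tumour score none rose or fell either, against 50 and 13 of all 19554 genes. Pvt1, the long noncoding RNA next to Myc, ran from 60.4 to 98.8 against 26.0 to 159.9 (0.10 ± 0.37, adjusted p = 0.894). Genes of chromosome 15, which carries Myc, had a median of -0.10 (410 genes with a mean value of at least 50), while the medians of the 19 autosomes ran from -0.11 on chromosome 19 to 0.26 on chromosome 18.

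Bptf had medians of 2152 in Myc-high and 1409 in Myc-low tumours and overlapped widely (0.77 ± 0.38, adjusted p = 0.279), with its lowest value, 407.6, in HET_late_2. The low group held more Bptf+/Δ tumours, and with genotype and onset as covariates the Bptf difference was 0.25. Of 13 NURF and ISWI remodelling genes 12 were positive (median 0.33, and 0.21 with these covariates), with Rsf1 at 0.49 and Cecr2 at 2.05, and none was called. The slope of each gene on Myc was compared between genotypes over the 18 tumours, and 0 of 19554 passed in limma (3060 had an unadjusted p under 0.05, and the smallest adjusted p was 0.0756). No other tool was run on that comparison.

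Genes of B cell stages had large differences and a large spread. Germinal centre and plasma cell genes were negative in 14 of 15 cases (median -2.50). All 14 had an unadjusted p under 0.05, against 9.82% of all genes, and none was called between the groups. With continuous Myc 11 fell over the 18 tumours, against 5.12% of all genes. With genotype and onset as covariates 5 of the list fell, against 128 of all 19554 genes. With the non-tumour score 0 fell, against 13 of all 19554 genes. Bcl6, the master regulator of the germinal centre, was at 35.4, 10.6, 16.2, 26.6, 26.9 and 53.1 in the Myc-high tumours. In the Myc-low tumours it was at 214.8, 189.6, 132.8, 77.8, 310.2 and 2276.0, with no overlap (-3.33 ± 0.66, limma adjusted p = 0.0693). Xbp1, a regulator of secretory capacity, also had no overlap (-1.57 ± 0.37), whereas Ell2 (-3.26) and Prdm1 (-2.50), which drive antibody secretion, did overlap. The summed level of the list ran from 4162 to 7651 in the Myc-high and from 6559 to 84486 in the Myc-low tumours, highest in HET_late_4 and WT_late_2. Without these 2 tumours the list median was -1.36, and without WT_late_1 and HET_late_4 it was -2.17.

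Pro-B and pre-B genes were positive in 10 of 15 cases (median 1.27, and 0.44 without WT_late_1 and HET_late_4). Cplx2, known as a regulator of vesicle fusion, had medians of 1973 against 45.4 (4.15 ± 1.01, adjusted p = 0.0938), the recombinase genes Rag1 and Rag2 were at 5.03 ± 1.59 and 4.30 ± 1.36, and the early B cell receptor Cd93 at 2.21. Their Myc-low values were high in WT_early_5, the only early tumour of that group, and Rag1 there (3130.7) was within the Myc-high range of 36.2 to 4021. With genotype and onset as covariates Rag1 was at 2.13. Pan-B genes were positive in 12 of 16 cases (median 0.59), with Cd79a at 2.13 and Pax5 at 1.20, none called. Among the 4 negative members were Blnk (-0.50) and Spib (-0.78). Without WT_late_1 and HET_late_4 the values of Cd79a and Pax5 were 1.04 and 0.74. The list median was 0.26 without WT_early_5, and on continuous Myc it was -0.02 with genotype and onset and -0.19 with the non-tumour score, so its direction was not stable. Of 12 mature B cell genes 8 were positive: Zfp318 was called, Ighd ran from 170.0 to 1885 against 9.0 to 266.2 and the complement inhibitor Cd55 was at 1.79, but the migration receptor Gpr183 was at -3.02. All 10 MHC class II genes were negative (median -0.60), yet the median was 0.10 with genotype and onset, where H2-Aa went from -1.05 to 0.04 and H2-Eb1 from -1.20 to 0.01, and it was -0.02 without WT_late_1 and HET_late_4.

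Markers of other cell types mostly had negative differences, that is, higher values in the Myc-low tumours, and their part in the other differences was not tested. All 25 T cell markers were negative (median -1.93), with Cd247 at -3.42 and Ctla4 at -3.75, and none called. At an unadjusted p under 0.05 there were 9, against 9.82% of all genes. Of the 25, 11 fell with Myc over the 18 tumours, against 5.12% of all genes. In limma with genotype and onset as covariates 0 of the 25 fell, against 128 of all 19554 genes. With the non-tumour score 0 fell as well, but that score is built partly from these T cell markers, so this count cannot speak to them. The summed level of the 25 markers ran from 554.2 to 2461 in the Myc-high and from 1798 to 11112 in the Myc-low tumours, and no marker was at 0 in every tumour of a group. Single genes weigh heavily in this sum: WT_late_1 had Cd4 at 5375.4 but Cd3e at 7.4. Among Myc-low tumours only HET_late_2 (108.0), HET_late_4 (105.4) and WT_late_2 (131.5) had Cd3e above the Myc-high maximum of 30.2. Of 15 cytotoxic markers all were negative (median -1.33, summed level 44.7 to 194.3 against 55.2 to 2748), and 3 had an unadjusted p under 0.05, against 9.82% of all genes. The median of the cytotoxic markers was -0.78 without HET_late_4, -0.22 without HET_late_4 and WT_late_2, and 0.29 with the non-tumour score as a covariate. Macrophage markers were negative in 14 of 19 cases (median -0.67, summed level 8357 to 15499 against 6889 to 44609), with Cybb of the phagocyte oxidase at 215.2 to 538.7 against 135.3 to 5087. Stromal genes were negative in 14 of 19 cases (median -0.51, summed level 7737 to 34000 against 9995 to 39930), with the proteoglycan gene Dcn at -1.27. At an unadjusted p under 0.05 there were 8, against 9.82% of all genes. Endothelial markers had a median of -0.05, erythroid of -0.44 and salivary, cartilage and muscle genes of -0.50, with the last list highest in WT_early_5.

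Interferon response genes were negative in 37 of 39 cases (median -0.72), 15 at an unadjusted p under 0.05, against 9.82% of all genes. Of the 39, 11 fell with Myc over the 18 tumours, against 5.12% of all genes. With genotype and onset as covariates 3 of the 39 fell, against 128 of all 19554 genes. With the non-tumour score 0 fell, against 13 of all 19554 genes. The interferon-induced GTPase genes Iigp1 (20.5 to 67.4 against 51.6 to 383.9, -2.12 ± 0.51, limma adjusted p = 0.093) and Igtp (-1.76) overlapped between groups, and the called Irf1 did not. The median was -0.28 with the non-tumour score as a covariate, under which the T cell median, whose own genes enter the score, was 0.04. The T cell and macrophage levels given above are higher in the same tumours as a group, and their part in the interferon difference was not tested. Lysosome and autophagy genes were negative in 18 of 20 cases (median -0.44, and -0.10 with the score), and Sqstm1, the autophagy receptor p62, had no overlap, at 839.2 to 1122 against 1234 to 2279 (-0.77 ± 0.16, adjusted p = 0.0771), while Atp6v0d1 of the proton pump was at -0.59. B cell receptor signalling genes had a median of -0.28. Immediate early genes, the first to be transcribed after a stimulus, were negative in 11 of 14 cases (median -0.57), with Jun at -0.99.

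**Figure D5:**
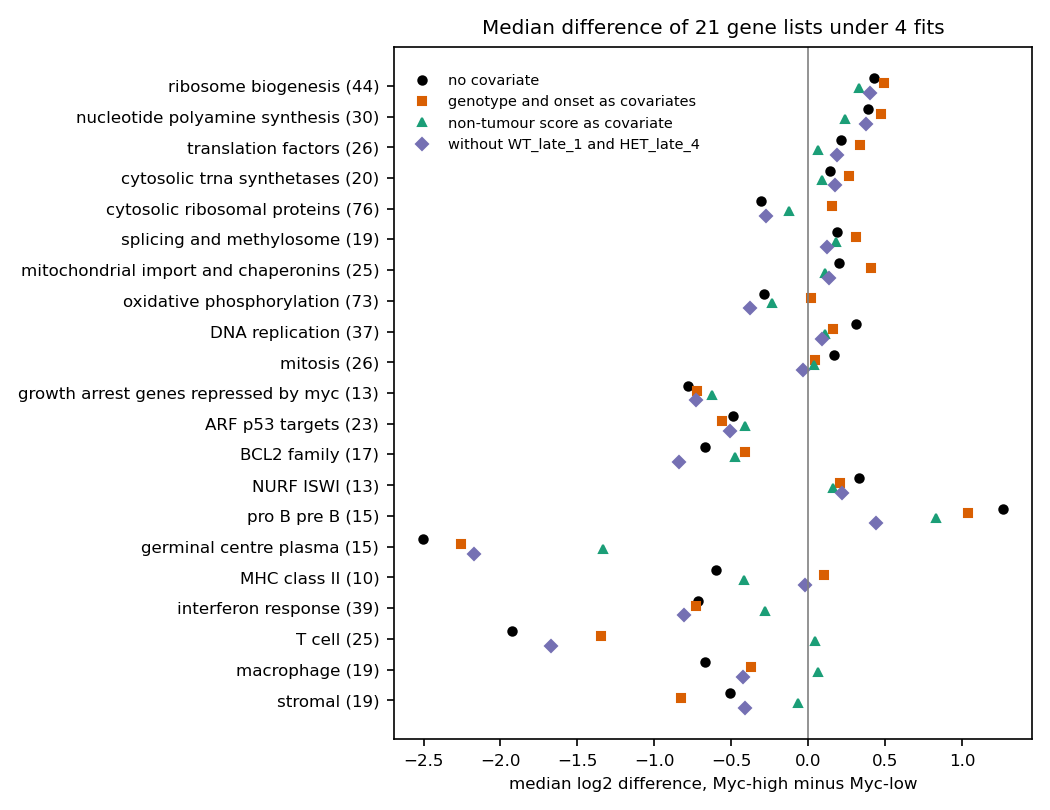
Median log2 difference between Myc-high and Myc-low tumours (x axis) of 21 gene lists (y axis, number of genes tested in brackets), with 1 symbol for each of 4 limma fits. Ribosome biogenesis stays between 0.33 and 0.50 and growth arrest genes between -0.78 and -0.62, while ribosomal proteins move from -0.31 to 0.16 and T cell genes from -1.93 to 0.04. The T cell value of 0.04 is from the fit with the non-tumour score, which is built partly from T cell, macrophage and stromal genes.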

How the data were processed

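Tools named per the submitters' processing notes are TopHat2 2.1.1, FastQC 0.11.5, Cuffdiff, Cuffnorm and Cufflinks 2.2.1, and the builds are mm10 and GRCm38. For the table itself, the tool, annotation and strand setting are not given in the sources used here. As deposited by the authors, the file holds a normalised signal for 21086 genes in 19 libraries. All values (100%) were whole multiples of 1 read within 0.01 reads, so read counts were recovered by dividing out 1 factor per library, and no 2 of 171 library pairs agreed within sampling noise (lowest chi-square per gene 13.1). Each tumour counted as 1 replicate. No molecular identifiers are named in the labels, so amplified copies may count more than once and depth speaks to counting error only. The number of amplification cycles depended on a protocol version that is not given per library, so no within-batch value could be had.

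The members and gene lists were chosen with earlier results of these data known. Lymphomas were ranked by Myc and 6 compared with 6 by limma 3.58.1 (trend, two-sided) in R 4.3.3 on log2(value + 1), which understates changes of weak genes, for genes that reached 1 in 4 or more of the 12 libraries, adjusted by Benjamini-Hochberg over all of them. Genes were named as the 12 largest called differences and 6 smallest p-values per direction with a group mean of at least 50, plus Bptf, Pvt1, network members and, from each list described, no more than 4 members, taken by smallest p. Utp20, Wdr43, Nop2, Imp4, Nme1, Tyms and the lineage genes of single tumours were named after their values were seen. The rule for promoters to print (called list members with the motif) found none, so all list members with the motif are printed. Alternatives were edgeR 4.0.16 (quasi-likelihood) and DESeq2 1.42.0 on the recovered counts, other pseudocounts, filters, normalisation, covariates, group sizes and leaving out tumours. The scripts were tested on simulated data. Group composition was tested with SciPy 1.17.1. GENCODE M21 (GRCm38) gave coordinates for 16075 genes, and promoters came from RefSeq (GRCm38.p6).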

Additional observations from a re-analysis of the deposited data

Results flagged for a closer look

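Among 144 groups of 6 tumours examined for a value far from the other 5, 8 had one. Chance alone would flag about 0.05 of groups, so this count is close to what chance alone would give. All values here are log2(value + 1). In the Myc-low group, Foxf2 was at 9.047 in HET_late_3 against 0.0 to 2.446 in the other 5, and the clone-named RP23-322J11.2 was at 4.065 in the same tumour against 0.0 to 1.325. Epcam was at 9.592 in HET_late_4 against 4.841 to 6.562, and Pla2g16 was at 6.928 in WT_late_1 against 8.471 to 8.985. Igkv4-50, an immunoglobulin variable gene, was at 1.014 in WT_late_2, which is 1 read, and at 0.0 in the rest. The mean of the pro-B and pre-B list was 10.15 in WT_early_5 against 3.877 to 5.645, and that of the salivary, cartilage and muscle list was 7.944 in the same tumour against 2.234 to 4.258. In the Myc-high group the mean of the DNA replication list was 9.685 in HET_early_3 against 9.864 to 9.932.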

How the results depend on the processing

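The counts of called genes, 17 higher and 18 lower, depended on most choices. As higher and lower genes, they were 112 and 56 with 18 tumours in 3 groups, 33 and 71 with 5 against 5, 30 and 84 with HET_early_2 ranked too, 488 and 1122 in DESeq2, 5 higher in edgeR, and 7 and 4 after quantile normalisation. With continuous Myc they were 1138 and 1002 over 18 tumours, 150 and 88 within WT, 183 and 128 with genotype and onset, 850 and 477 without WT_late_2, and 101 higher without WT_late_2 and HET_late_4 or 50 higher with the non-tumour score. They were 4 and 3 in WT tumours only and 1 and 3 without HET_late_4 and WT_late_2. They were 0 and 0 in limma with 9 against 9 (2926 genes at an unadjusted p under 0.05), genotype and onset (1855), the non-tumour score (921), late tumours only (1549), within Bptf+/Δ tumours (3310) and without WT_late_1 and HET_late_4 (2511). Leaving out 1 tumour gave 0 to 223 higher and 0 to 224 lower genes: 223 and 224 without WT_early_5, 87 and 149 without HET_late_3, and at most 5 in either direction without any of the other 10. Fits over fewer tumours, WT or late only, 18 in 3 groups, continuous variants with covariates or exclusions, and exclusions of tumour pairs included some chosen after seeing the data. The 35 called genes kept their direction on leaving out each tumour. Pvt1 (0.10) changed sign in 11 fits (-0.15 with 5 against 5, -0.029 with 9 against 9, -0.0581 in DESeq2, -0.10 in edgeR, -0.0907 with HET_early_2 ranked, -0.19 without HET_late_3, and -0.0629, -0.0268, -0.19, -0.14 and -0.70 with continuous Myc over 18 tumours, with genotype and onset, without WT_late_2 and HET_late_4, without WT_late_2 and within Bptf+/Δ), and ran from -0.1875 to 0.3279 on leaving out 1 tumour. Max (0.17) was at -0.0792 and -0.0028 with the non-tumour score, over 18 and 12 tumours, and -0.0088 within Bptf+/Δ. H2-Aa and H2-Eb1 became 0.0412 and 0.0053 with genotype and onset. No paired analysis was possible because replicate numbers follow deposition order only and the tumours came from separate mice.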
